A study of Homo sapiens with 6 samples.

Results

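The NRF2 antioxidant and ferroptosis defence genes were taken as 10 genes matched by symbol in the deposited table. They were NFE2L2, KEAP1, NQO1, HMOX1, TXNRD1, SRXN1, GCLC, GCLM, SLC7A11 and GPX4. The table listed 50868 genes, 15055 had enough counts to be tested, and all 10 members were among them. Total RNA of Huh7 cells, an established human hepatoma line, was sequenced 48 h after transfection with Lipofectamine 2000. In 3 libraries the cells had received a plasmid that overexpresses hsa_circ_0098181, a circular RNA made from exons of SOX5, and in 3 libraries they had received the control plasmid. All 6 libraries therefore shared the cell line, the lipid reagent, a plasmid and the time point, and no library of untransfected cells was analysed here. Nothing in the labels says that libraries of a group came from separate cultures, so p-values measure the spread between these libraries, which may be technical.

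NRF2, the protein of NFE2L2, is a transcription factor that binds antioxidant response elements in front of genes for detoxification, glutathione and thioredoxin. KEAP1 captures NRF2 in the cytoplasm and hands it to a CUL3 ubiquitin ligase for destruction, and oxidants or electrophiles stop this, so NRF2 activity is set largely at the protein level. Ferroptosis is an iron-dependent cell death by lipid peroxidation. It is held back by cystine import through SLC7A11, glutathione made from that cystine, and GPX4, which uses glutathione to reduce lipid peroxides. Many liver tumours carry an overactive NRF2 pathway. RNA levels show neither NRF2 protein nor its activity, and in bulk RNA fewer cells of a kind and less RNA per cell cannot be told apart.

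The core of the antioxidant response element, searched as TGACNNNGC on either strand (GCNNNGTCA when it lies on the other strand), is printed here as it occurs close to the start of 3 members, because these elements are the sequence through which NRF2 acts on its targets. The promoters were RefSeq windows on GRCh38.p14 that run from 250 bases before to 50 bases after an annotated start. Of all 35116 such promoters, 13.3% held the core, and 16.1% of 27305 genes had at least 1 promoter with it. Entries existed for 8 of the 10 members, all but HMOX1 and SLC7A11. Among their 13 promoters 4 held the core, and these belonged to GCLM, KEAP1 and TXNRD1. Each sequence is written 5′ to 3′ on the strand of the gene, with the core in capitals.
GCLM, chr1:93909446-93909474, minus strand, core starting 34 bases before the start: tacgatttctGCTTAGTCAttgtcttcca
KEAP1, chr19:10502784-10502812, minus strand, core starting 31 bases before the start: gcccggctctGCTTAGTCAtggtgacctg
KEAP1, chr19:10502807-10502835, minus strand, core starting 54 bases before the start: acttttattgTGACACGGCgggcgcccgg
TXNRD1, chr12:104215670-104215698, plus strand, core starting 99 bases before the start: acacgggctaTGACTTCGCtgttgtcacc
TXNRD1, chr12:104215761-104215789, plus strand, core starting 8 bases before the start: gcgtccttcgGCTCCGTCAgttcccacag
TXNRD1, second annotated start, chr12:104286920-104286948, plus strand, core starting 102 bases before the start: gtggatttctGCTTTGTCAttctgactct
GCLM and KEAP1 carried the same 9 letters, GCTTAGTCA. A match describes these letters only, and the windows are short, so no reading of the other members follows from them.

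The study asked whether the circle binds miR-18a-3p, so the microRNA and its possible sites in the members are shown as well. Its mature RNA (RefSeq, chr13:91350797-91350819, plus strand, GRCh38.p14) is printed with the seed, bases 2 to 8, in capitals.
hsa-miR-18a-3p: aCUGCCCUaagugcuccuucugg
The complement of the seed is AGGGCAG, and it was searched in the 3′ UTRs of all coding transcripts of each gene in GENCODE 29. Of 12637 tested genes with a 3′ UTR, 24.7% held it in at least 1 transcript. Among the 10 members it occurred in SRXN1 alone, at base 978 of a 3′ UTR of 2099 bases, with the match in capitals in the window printed next.
SRXN1, chr20:647719-647747, minus strand: ctgggctcaacAGGGCAGttctgctgctc
In the fit of all 6 libraries SRXN1 is the member whose fitted difference between the groups was nearest to 0. That difference ran from -0.15 to 0.23 on the log2 scale when single libraries were left out, and an effect of the site was not tested.

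Library totals ran from 11130902 to 14138262 gene counts. SOX5, the host gene of the circle, had 26907, 33577 and 24906 counts in the overexpression libraries but 453, 404 and 380 in the controls, in the direction the labels give. Its fitted difference was 5.88 on the log2 scale (standard error, SE, 0.16; adjusted p = 2.6e-06 in edgeR's quasi-likelihood test, Benjamini-Hochberg), and gene counts cannot part circle from linear RNA or plasmid from genome. Control replicate 1 held the highest share of mitochondrial counts, 9.29%, against 6.32% to 7.04% in the other 5 libraries. The sum of 10 hepatoma markers was between 31894 and 37665 CPM in every library, where CPM stands for counts scaled to a common library size. Single markers moved within this sum: none passed an adjusted p of 0.05 in edgeR, but APOA2 (log2 fold change 0.25) and APOB (-0.39) had an unadjusted p of 0.0377 and 0.0459. These were not the widest differences, as the log2 fold changes of the 10 markers ran from -0.54 to 0.29. HNF4A, a liver transcription factor named after its values were seen, was at 197 CPM in control replicate 1 and between 76.2 and 114 CPM in the other libraries. Of 10 markers of endothelial, blood, fibroblast, muscle and squamous cells, 4 passed the filter on low counts, the sum of all 10 ran from 63.9 to 81.7 CPM, and HBB and KRT5 were at 0. As a group these markers were therefore not absent. The 4 tested had log2 fold changes from -0.12 to 0.49, none with an unadjusted p under 0.05 in edgeR.

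None of the 10 members passed an adjusted p of 0.05 in edgeR or in DESeq2. Over all tested genes edgeR called 6, which is 0.0399%. At an unadjusted p under 0.05, 2 members, NFE2L2 and HMOX1, were past the threshold by each tool, or 20% of the members. Over all genes this held for 5.50% of those tested by edgeR and for 684 of the 27086 that DESeq2 fitted. The DESeq2 genes had not passed the filter on low counts used for edgeR, so these backgrounds cover unlike sets of genes. Fits by edgeR that left out 1 library gave 1 to 3 such members. The 3 overexpression values lay above all 3 control values in NFE2L2 and HMOX1, against 6.40% of all tested genes, and below them in GCLC, against 6.50%. With so few members, these shares stand on 1 or 2 genes each. The fitted log2 fold change was above 0 in 6 members and below 0 in 4, and its median was 0.023, beside 0.0023 over all tested genes. Both rested on single controls: without control replicate 1 the median was -0.087, with 3 members above 0 and 7 below, and leaving out control replicate 2 or 3 instead gave medians of -0.013 and 0.13. NFE2L2, which encodes NRF2 itself, had by far the widest difference, and without it the median was 0.0085.

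**Figure D1:**
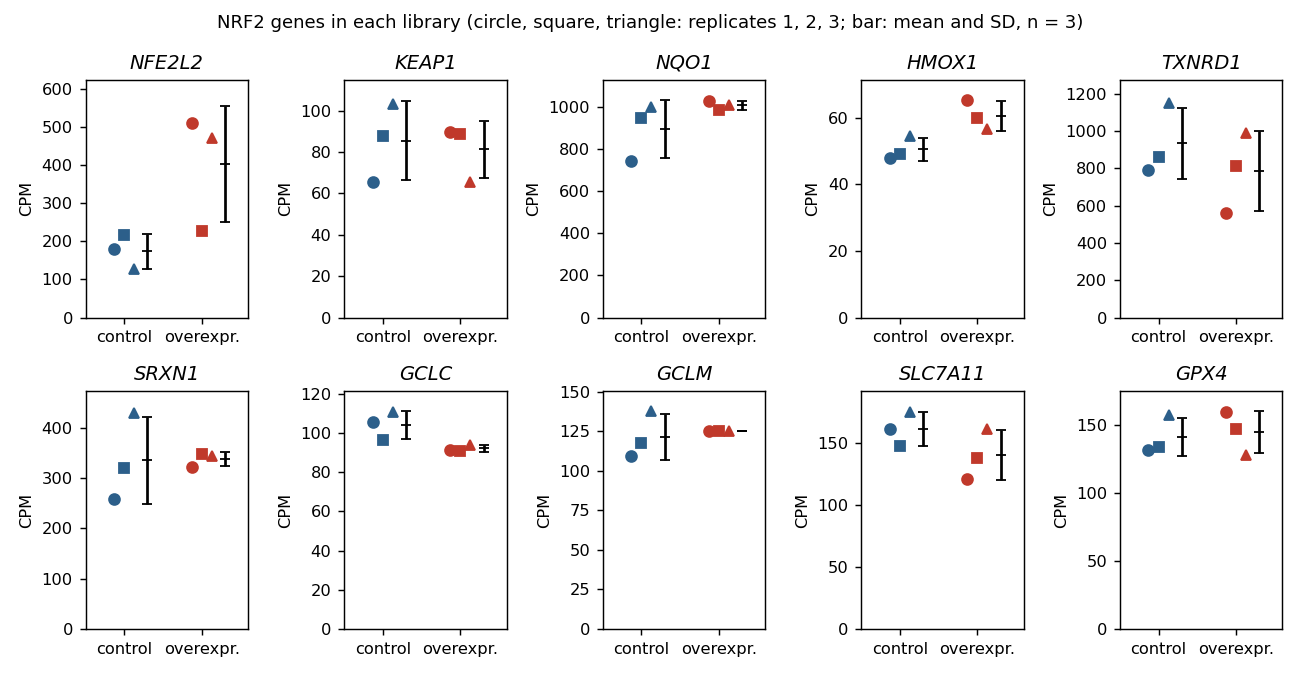
CPM of the 10 genes in each of the 6 libraries, with 1 panel per gene and each axis starting at 0; blue marks are control and red marks overexpression libraries, and the black bars give the mean ± SD (n = 3). NFE2L2 stood at 511 and 471 CPM in overexpression replicates 1 and 3 and at 228 CPM in replicate 2, close to the highest control at 217 CPM.

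NFE2L2 (ENSG00000116044, chr2:177227595-177392697, minus strand, hg38) encodes the transcription factor NRF2. It was at 511, 228 and 471 CPM in overexpression replicates 1, 2 and 3. In control replicates 1, 2 and 3 it was at 179, 217 and 126 CPM. The overexpression libraries thus formed no tight group: replicates 1 and 3 were high, while replicate 2 was only 1.05 times the highest control library. The means were 403 ± 153 and 174 ± 45.6 CPM (SD, n = 3 each). That is a log2 fold change of 1.21 with an SE of 0.30, or a 2.32-fold difference with a 95% confidence interval from 1.43 to 3.74. The unadjusted p of edgeR was 0.00363, rank 46 among 15055 genes, with 0.797 after Benjamini-Hochberg adjustment, and thus missed the threshold.

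The spread of NFE2L2 between libraries was wide. Its SD within groups on the log2 scale was higher than that of 95.3% of all tested genes, and within the overexpression group higher than that of 97.3%. An SD from 3 libraries is imprecise, so no trait of NFE2L2 is read from it. Leaving out overexpression replicate 2 gave a log2 fold change of 1.49 with an adjusted p of 0.0822, and leaving out overexpression replicate 1 gave 1.00 with an adjusted p of 0.979, both by edgeR. No fit that left out a library brought NFE2L2 past the threshold.

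The counting of reads where genes overlap was not given in the sources used here, nor was the use of strand. AGPS, a gene of ether lipid synthesis on the other strand, starts within the first 54 bases of NFE2L2, so that the 5′ ends of both overlap, and it held 43246 counts over the 6 libraries, 194% of the 22269 of NFE2L2. When the counts of all overlapping genes were added to those of NFE2L2, the log2 fold change was 0.37 with most of the sum from AGPS. AGPS had 7688, 7835 and 7551 counts with overexpression and 5913, 6966 and 7293 in the controls. The shared stretch is 54 bases, so the sum takes in AGPS reads from outside NFE2L2 and does not measure the effect of the overlap. With only the genes that lie wholly inside NFE2L2 added, an alternative chosen after seeing the data, the log2 fold change was 1.18.

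KEAP1 (ENSG00000079999, chr19:10486120-10503741, minus strand), the adaptor that sends NRF2 for degradation, was at 89.8, 88.5 and 65.4 CPM with overexpression. The control libraries stood at 65.4, 88.0 and 103 CPM. The groups covered nearly the same range, and their means were 81.2 ± 13.8 and 85.5 ± 19.0 CPM (SD, n = 3 each). The log2 fold change was -0.074 with a 95% confidence interval from -0.49 to 0.35, and the adjusted p of edgeR was 0.940. Its sign turned in fits that left out 1 library, with 0.060 without overexpression replicate 3 and 0.084 without control replicate 3, and it was -0.23 without control replicate 1.

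A ratio of NFE2L2 to KEAP1 CPM, chosen after their values were seen and given without a test, was 5.69, 2.58 and 7.20 with overexpression and 2.73, 2.47 and 1.23 in the controls. Overexpression replicate 2 fell inside the range of the control libraries. The means were 5.16 ± 2.36 and 2.14 ± 0.806 (SD, n = 3 each).

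**Figure D2:**
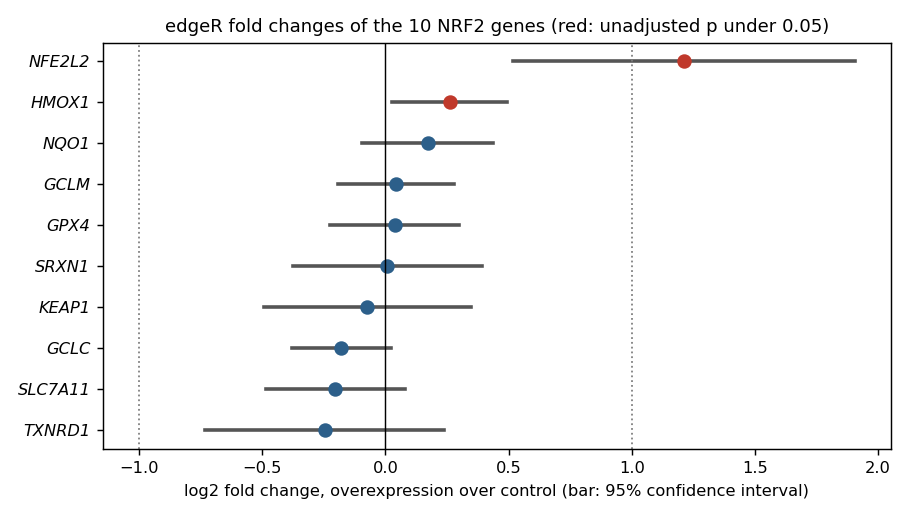
Log2 fold change of each of the 10 genes, overexpression over control, from edgeR, with its 95% confidence interval as a bar; dotted lines mark 2-fold lower and higher, and red marks an unadjusted p under 0.05. The intervals of NFE2L2 and HMOX1 lie above 0, that of NFE2L2 alone reaches past 2-fold, and those of the other 8 genes include 0.

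The enzymes most often read as NRF2 targets came next. NQO1 (ENSG00000181019, chr16:69706996-69726951, minus strand) reduces quinones without radical intermediates and had the highest CPM of the 10 genes after averaging all libraries. It was at 1029, 986 and 1011 CPM with overexpression, and at 742, 947 and 998 CPM with the control plasmid. The overexpression libraries lay close together, and control replicate 1 alone was low. The means were 1009 ± 22.0 and 896 ± 136 CPM (SD, n = 3 each). The fitted log2 fold change of 0.17 (SE 0.12, 95% confidence interval -0.096 to 0.44) went with an adjusted p of 0.797 in edgeR, and without control replicate 1 the change was 0.054.

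HMOX1 (ENSG00000100292, chr22:35380361-35394214, plus strand) encodes heme oxygenase 1, which breaks heme into biliverdin, carbon monoxide and iron. It was at 65.2, 59.8 and 56.5 CPM with overexpression and at 47.8, 49.1 and 54.5 CPM in the controls. The groups did not overlap, although the lowest overexpression library was only 1.04 times the highest control. With means of 60.5 ± 4.40 and 50.5 ± 3.53 CPM (SD, n = 3 each), the difference was 1.20-fold, with a 95% confidence interval from 1.02 to 1.41. edgeR gave an unadjusted p of 0.0318 and an adjusted p of 0.797. Its log2 fold change of 0.26 (SE 0.10) ran from 0.20 to 0.32 when each library was left out in turn. The unadjusted p of edgeR was 0.105 and 0.0699 without overexpression replicates 1 and 2. It was 0.0697 and 0.0883 without control replicates 1 and 2, and 0.0706 with a replicate block. Without overexpression replicate 3 or control replicate 3 it was 0.0342 or 0.0220.

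TXNRD1 and SRXN1 stand for the thioredoxin arm. TXNRD1 (ENSG00000198431, chr12:104215779-104350305, plus strand) is the selenoprotein that reduces thioredoxin with NADPH. It was at 564, 811 and 989 CPM with overexpression and at 790, 862 and 1152 CPM in the controls. Overexpression replicate 1 was the lowest library and control replicate 3 the highest, and the other 4 values interleaved. The means of 788 ± 214 and 935 ± 192 CPM (SD, n = 3 each) gave a log2 fold change of -0.25 (SE 0.21, 95% confidence interval -0.73 to 0.24), with an adjusted p of 0.828 in edgeR.

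That value of TXNRD1 moved with single libraries, to -0.054 without overexpression replicate 1, to -0.068 without control replicate 3 and to -0.44 without overexpression replicate 3. A processed pseudogene of a ribosomal protein, RPL18AP3, lies inside TXNRD1 on the same strand and held 19904 counts, 31.0% of the 64272 of TXNRD1. The pseudogene had 4210, 3970 and 3196 counts in the overexpression libraries, against 2263, 3042 and 3223 in the controls. With all genes that lie inside TXNRD1 added, nearly all of them counts of RPL18AP3, the log2 fold change was -0.14. How reads in this stretch were assigned is not given in the sources used here. Apart from RPL18AP3 and AGPS, no overlapping gene held more than 1.49% of the counts of a member.

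SRXN1 (ENSG00000271303, chr20:646615-653370, minus strand) encodes sulfiredoxin, which restores over-oxidised peroxiredoxins. Its overexpression values were 321, 348 and 344 CPM, and its control values 258, 320 and 429 CPM. The control libraries spread on both sides of the overexpression libraries, with means of 338 ± 14.3 and 336 ± 86.8 CPM (SD, n = 3 each). The log2 fold change was 0.0085 with a 95% confidence interval from -0.37 to 0.39 and an adjusted p of 0.993 in edgeR. Its sign turned without any 1 of 4 libraries, and the lowest value was -0.15 without control replicate 1, the highest 0.23 when control replicate 3 was left out.

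GCLC and GCLM encode the catalytic and the modifier subunit of glutamate-cysteine ligase, the first and limiting step of glutathione synthesis. GCLC (ENSG00000001084, chr6:53497341-53616970, minus strand) was at 91.6, 90.7 and 94.1 CPM with overexpression and at 106, 96.6 and 111 CPM in the controls. All overexpression libraries lay below all controls, and its spread within groups was larger than that of only 7.4% of tested genes. The means were 92.1 ± 1.78 and 104 ± 7.14 CPM (SD, n = 3 each). The log2 fold change of -0.18 (SE 0.088, 95% confidence interval -0.38 to 0.024) had an unadjusted p of 0.0764 and an adjusted p of 0.797 in edgeR. Leaving out single libraries gave -0.23 to -0.13.

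GCLM (ENSG00000023909, chr1:93885205-93909456, minus strand) was at 125.0, 125.4 and 124.8 CPM with overexpression, and at 109, 117 and 138 CPM in the controls. The overexpression libraries were nearly identical, with an SD of 0.280 CPM, while the controls reached to either side of them. On the log2 scale this SD was larger than that of 0.073% of tested genes only. An SD from 3 libraries is imprecise, so no trait of GCLM is read from it. The means of 125 and 121 ± 14.7 CPM (SD, n = 3) gave a log2 fold change of 0.043 with a 95% confidence interval from -0.19 to 0.28, and an adjusted p of 0.938 in edgeR. Without control replicate 1 it was -0.026, and leaving out control replicate 3 gave 0.14.

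The ratio of modifier to catalytic subunit, GCLM over GCLC in CPM and again chosen after the values were seen, was 1.36, 1.38 and 1.33 with overexpression. In the controls it was 1.03, 1.22 and 1.24. The groups did not overlap, with means of 1.36 ± 0.029 and 1.16 ± 0.114 (SD, n = 3 each), and no test was run on it. GCLC, the divisor, already lay apart between the groups, and control replicate 1 was the lowest library. No share of other gene ratios without overlap was taken, so the separation is description only.

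SLC7A11 (ENSG00000151012, chr4:138164097-138242349, minus strand) encodes the exchanger that brings in cystine for glutamate. It was at 121, 137 and 161 CPM with overexpression and at 161, 147 and 174 CPM in the controls. Overexpression replicate 3 reached the level of control replicate 1, so the groups overlapped. The means were 140 ± 20.3 and 161 ± 13.6 CPM (SD, n = 3 each). The log2 fold change was -0.20 (SE 0.12, 95% confidence interval -0.48 to 0.078), the adjusted p of edgeR was 0.797, and the change was -0.32 without overexpression replicate 3 and -0.11 without overexpression replicate 1.

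GPX4 (ENSG00000167468, chr19:1103926-1106791, plus strand), the selenoprotein that detoxifies lipid peroxides, was at 159, 147 and 128 CPM with overexpression and at 132, 134 and 157 CPM in the controls. Each group spanned about the same range. With means of 145 ± 15.6 and 141 ± 14.2 CPM (SD, n = 3 each), the log2 fold change was 0.038 with a 95% confidence interval from -0.22 to 0.30 and an adjusted p of 0.951 in edgeR. It was -0.037 without overexpression replicate 1 and 0.12 without control replicate 3.

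For the 9 genes other than NFE2L2, each 95% confidence interval limits the size of a difference missed in that gene between these libraries. The intervals were not widened for reading 9 genes together. If the libraries were technical, the intervals do not cover the spread between cultures. The lowest bound was 0.602-fold, in TXNRD1, and the highest was 1.41-fold, in HMOX1. All 9 intervals lay within 0.5-fold and 2-fold, while NFE2L2 had an interval that reached 3.74-fold. A missed threshold does not show that the 9 genes were alike in the groups.

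Levels were compared between genes per kilobase of merged GENCODE 29 exons and by library size (RPKM). In the control libraries NQO1 was highest at 273 ± 44.6 RPKM (SD, n = 3), then TXNRD1 at 138 ± 29.3 and SRXN1 at 123 ± 32.9 RPKM, whose ranges overlapped. GPX4 followed at 69.2 ± 7.40 RPKM, apart from its neighbours on either side. NFE2L2 at 28.8 ± 7.66, KEAP1 at 22.5 ± 5.23, GCLM at 22.2 ± 2.87 and HMOX1 at 20.8 ± 1.62 RPKM had overlapping ranges and no clear order. SLC7A11 at 16.5 ± 1.38 RPKM overlapped KEAP1 alone among these, and GCLC was lowest at 11.9 ± 0.784 RPKM. With overexpression NFE2L2 was at 67.8 ± 25.5 RPKM (SD, n = 3), near GPX4 at 72.2 ± 7.45 RPKM.

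The order by the deposited FPKM differed, with SRXN1 second before TXNRD1, and SLC7A11 and GCLM both before NFE2L2. The length behind FPKM was 1.00 times the merged exon length for SRXN1 and 2.74 times for GPX4, so genes with many annotated exons were scaled down. This does not touch comparisons of a gene between libraries.

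**Figure D3:**
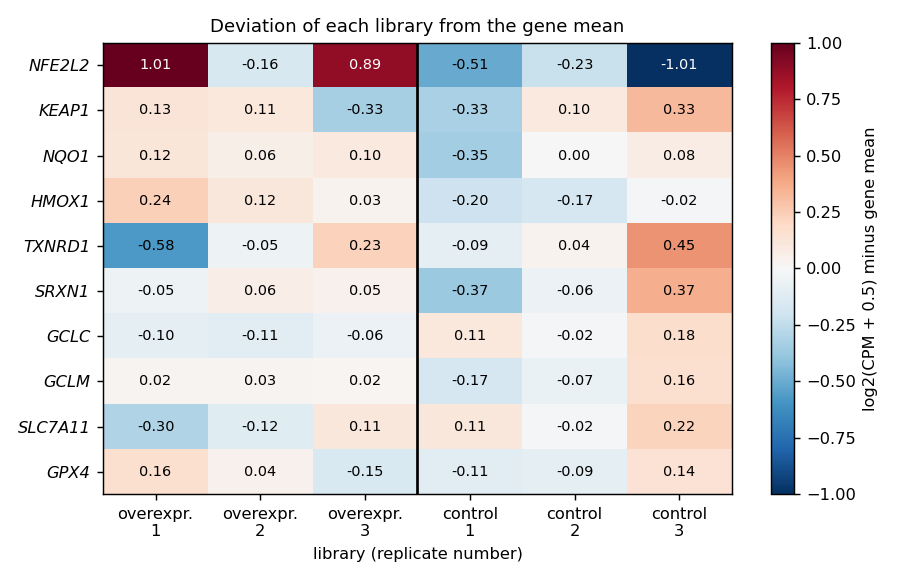
Deviation of each library from the mean of the gene over all 6 libraries, as log2(CPM + 0.5), for the 10 genes (rows) in the 6 libraries (columns, black line between groups); red is above and blue below the mean. NFE2L2 runs from -1.01 in control replicate 3 to 1.01 in overexpression replicate 1, while most other genes are below the mean in control replicate 1 and all others are above it in control replicate 3, HMOX1 excepted at -0.02.

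The members were also read by library. Control replicate 3 was the highest library for 6 of the 10 genes, namely KEAP1, TXNRD1, SRXN1, GCLC, GCLM and SLC7A11, and overexpression replicate 1 for the other 4. Control replicate 1 was lowest for NQO1, HMOX1, SRXN1 and GCLM. Summed over the 10 genes the CPM were 3078, 3022 and 3446 with overexpression and 2590, 2980 and 3444 in the controls, so overexpression replicate 3 and control replicate 3 were almost level.

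The mean deviation of the 9 genes other than NFE2L2 was -0.16, -0.031 and 0.21 in control replicates 1, 2 and 3, on the log2(CPM + 0.5) scale. With overexpression it lay between -0.040 and 0.015. Control replicates 1 and 3 thus stood at opposite ends. NFE2L2 did not follow the other genes: in control replicate 3, where most of them were highest, it was at its lowest. Control replicate 1 is the library with the highest mitochondrial share, and the part of that share in these values was not tested. The group means of KEAP1, SRXN1, GCLM and GPX4 were close enough that leaving out 1 library turned the sign of their difference.

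The rest of the pathway was described with 7 lists of 108 genes, of which 102 were tested. None of the 102 passed an adjusted p of 0.05 in edgeR or DESeq2, and 4 had an unadjusted p under 0.05 in edgeR, 1 higher and 3 lower, which is 3.92% against the 5.50% of all genes. DESeq2 gave 5. Differences were above 0 in 58 genes and below 0 in 44, with a median log2 fold change of 0.026. In 1 gene all overexpression values lay above the controls, which is 0.98% against 6.40% of all tested genes, and in 7 they lay below, which is 6.86% and near the 6.50% of all tested genes. The named genes of each list are those with the smallest p.

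**Figure D4:**
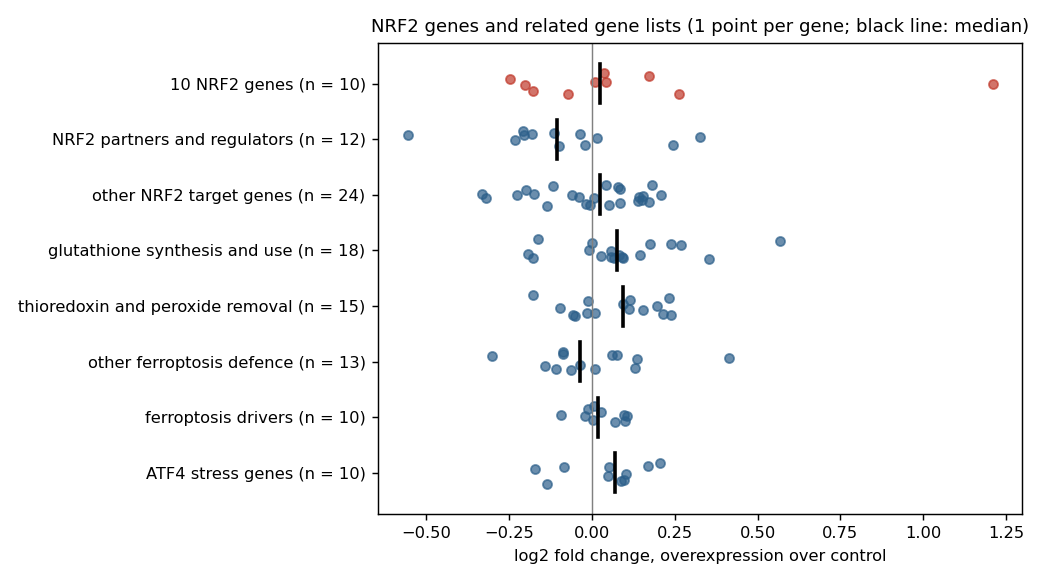
Log2 fold change, overexpression over control, of the 10 NRF2 genes (red) and of the tested genes of 7 related lists (blue), 1 point per gene, with the list's median as a black line; vertical position within a list has no meaning. Medians lie between -0.11 and 0.095, and NFE2L2 at 1.21 is the point farthest from 0.

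Among 12 partners and regulators of NRF2, 3 had a log2 fold change above 0 and 9 below, with a median of -0.11. BACH2, a repressor related to BACH1 that binds similar elements, was at 7.93, 10.8 and 10.3 CPM with overexpression and at 13.7, 12.9 and 16.2 CPM in the controls. The groups did not overlap, and the log2 fold change was -0.56 (SE 0.17) with an unadjusted p of 0.00996 and an adjusted p of 0.797 in edgeR. CUL3, the scaffold of the ligase that KEAP1 serves, was at 111, 120 and 113 CPM against 135, 128 and 134 CPM, again without overlap. Its log2 fold change was -0.21 (SE 0.081), with an unadjusted p of 0.0318 and an adjusted p of 0.797 in edgeR. RBX1, the RING subunit of the same ligase, was named after its values were seen as the remaining gene under 0.05. Its means were 39.7 and 31.6 CPM, a log2 fold change of 0.33 with an unadjusted p of 0.0435 in edgeR, opposite in sign to CUL3.

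In 24 other NRF2 target genes the median was 0.025, with 13 above 0 and 11 below. ABCC3, an exporter of conjugated compounds, was at 32.6, 33.9 and 32.0 CPM with overexpression and at 39.8, 45.2 and 37.9 CPM in the controls. No overexpression library reached a control library, and the log2 fold change was -0.32 (SE 0.11, unadjusted p of 0.0161 and adjusted p of 0.797 in edgeR). ABCC1, a related exporter that carries glutathione conjugates, had a log2 fold change of -0.23 (SE 0.12) with overlapping groups.

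In 18 genes of glutathione synthesis and use the median was 0.074, with 13 above 0 and 5 below, and none was under an unadjusted p of 0.05. GPX1, the abundant cytosolic glutathione peroxidase, was at 139, 131 and 97.7 CPM with overexpression and at 85.6, 114 and 48.5 CPM in the controls. Control replicate 3 was the low library, as it was for NFE2L2, and without it the log2 fold change of 0.57 (SE 0.28) was 0.30, while it was 0.87 without control replicate 2. GPX7, a peroxidase of the endoplasmic reticulum, had a log2 fold change of 0.35 (SE 0.17), which was 0.21 without control replicate 1.

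The 15 genes of thioredoxin and peroxide removal had a median of 0.095, 9 above 0 and 6 below. TXN, thioredoxin itself and the substrate of TXNRD1, was at 414, 344 and 347 CPM with overexpression and at 259, 337 and 356 CPM in the controls. Its log2 fold change was 0.21 (SE 0.14) and rested on control replicate 1, without which it was 0.090. The peroxiredoxin gene PRDX5 behaved in a like manner, with 0.24 (SE 0.13) and 0.11 without that library.

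Beyond GPX4 and SLC7A11, 13 of 14 genes in a list of other ferroptosis defence were tested, with a median of -0.036. The list held DHCR7, which consumes 7-dehydrocholesterol, a sterol that limits lipid peroxidation, and so acts against this defence; without it the median of the other 12 was -0.050. SECISBP2, which helps to insert selenocysteine into proteins such as GPX4 and TXNRD1, was at 71.4, 66.7 and 71.4 CPM against 81.2, 75.3 and 74.5 CPM in the controls. The groups did not overlap, but the log2 fold change of -0.14 (SE 0.088) had an unadjusted p of 0.144 in edgeR. DHCR7 had a log2 fold change of 0.13 (SE 0.12), and -0.0052 without overexpression replicate 2.

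Of 15 ferroptosis drivers 10 were tested, with a median of 0.017 and a range from -0.093 to 0.11. The lipoxygenase genes ALOX5, ALOX12, ALOX15 and ALOXE3 did not pass the filter on low counts, and ALOX5 was at 0 in every library. ACSL4, which loads polyunsaturated fatty acids into lipids that can peroxidise, was at 575 ± 27.9 and 613 ± 62.6 CPM (SD, n = 3 each), and its log2 fold change was -0.093 (SE 0.098), with -0.0069 when control replicate 1 was left out and -0.15 when control replicate 3 was. SAT1, an enzyme of polyamine breakdown, had a log2 fold change of 0.069 (SE 0.10), which was -0.0051 without control replicate 1 and 0.13 without control replicate 2.

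ATF4, the factor of the amino acid and unfolded protein response, shares SLC7A11 with NRF2 as a target. Its 10 listed genes had a median of 0.068, with 7 above 0 and 3 below. ASNS, asparagine synthetase, had a log2 fold change of -0.17 (SE 0.099), and PHGDH, the first enzyme of serine synthesis, one of 0.17 (SE 0.10), which was 0.083 without control replicate 1. Neither reached an unadjusted p of 0.05 in edgeR, and both had overlapping groups.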

How the data were processed

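Total RNA of 6 Huh7 libraries, 3 per group, was grouped by sample title. The authors deposited 1 table with whole-number read counts and FPKM values per gene and library. Per the labels' processing notes, hg38 and TopHat2 2.0.9 were used, while the counting tool, the use of strand and the annotation release were not given in the sources used here. All 10 loci matched GENCODE 29. Counts were tested with edgeR 4.0.16 (R 4.3.3), using TMM library sizes, the low-count filter filterByExpr at a minimum of 10, glmQLFit and a two-sided glmQLFTest, and p-values were adjusted by Benjamini-Hochberg over 15055 genes. CPM used TMM library sizes, and standard errors came from the F statistic. Alternatives were other normalizations and filters, DESeq2 1.42.0, limma 3.58.1 on log2(FPKM + 1), a replicate block, summed overlapping genes and each library left out. Tests were also run on simulated counts in which some genes changed by 2-fold or more. Smaller differences were not simulated, so that run does not speak to them, and its outcome is not used here. Library pairs within groups differed by 10.1 to 20.9 chi-square per degree of freedom, so none was counted as a copy.

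The members and lists were chosen with earlier results of these data known. Named were the members, SOX5, genes that overlap a member, and up to 2 genes per list with the smallest unadjusted p among those with a mean of at least 10 CPM.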

Additional observations from a re-analysis of the deposited data

How the results depend on the processing

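No member passed an adjusted p of 0.05 under any alternative run. Of 152 values of members under alternatives, 143 kept their direction and 9 turned it, in fits that left out 1 library and in 4 genes. These ran from -0.23 to 0.084 for KEAP1, from -0.15 to 0.23 for SRXN1, from -0.026 to 0.14 for GCLM and from -0.037 to 0.12 for GPX4. The other alternatives used the same 6 libraries, and summing added 0 counts to NQO1, so the 143 are no measure of stability. Over all genes DESeq2 called 24, 7 higher and 17 lower, against 6 by edgeR, and leaving out 1 library gave 4 to 16 calls, with 16 without overexpression replicate 2, 10 without overexpression replicate 3 and 9 without control replicate 2. The cause was not tested. A replicate block gave 4 calls over all genes, none a member, and a log2 fold change of 1.17 for NFE2L2. The deviations of libraries with the same number correlated at -0.036, -0.023 and -0.031, so no common shift over all tested genes was seen. Whether such libraries shared a batch or a culture day was not tested. Without a filter on low counts NFE2L2 had an adjusted p of 0.201. The confidence intervals in the report show the precision that 3 libraries per group gave.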
